A study of Danio rerio with 25 samples.

Results

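The 150 transcripts described here had a higher mean level in zebrafish embryos exposed to 0.03 μg/L citalopram than in untreated embryos, and nearly the control level at 0.9, 50 and 250 μg/L. They were chosen by these levels. L denotes the log2 ratio of the citalopram mean to the control mean at a dose, so an L of 0 means equal levels. Of 32963 transcripts listed in any of the 4 dose tables, 30242 were listed in all 4, and 22957 of these had a mean of at least 50 normalized counts in every group and table. L was between -0.2 and 0.2 at each of the 3 higher doses for 13613 of them, and the 150 with the highest L at 0.03 μg/L were taken. Because the same means chose these transcripts, their values at all doses are a description and none of them was tested.

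RNA was sequenced from wild-type whole embryos in 25 libraries, each made from 50 embryos pooled at 48 h post-fertilization (hpf). The 5 groups of 5 libraries were untreated embryos kept in 0.3× Danieau medium and 4 groups exposed to citalopram hydrobromide, from 0.03 μg/L over 0.9 and 50 up to 250 μg/L. Exposure ended at 24 hpf in every treated group, and all embryos then developed without the drug until 48 hpf. The labels give 0 hpf as its start and the study's methods about 2 hpf. The labels give 1 batch value for all libraries. Each pool mixes the tissues of whole embryos, so more cells of a type and more RNA per cell cannot be told apart in the values used here. The study estimated cell type proportions from its RNA data and reported no significant change at any dose after adjustment. Before adjustment it names several types, lens cells among them, as possibly affected at 0.03 μg/L.

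Citalopram is a selective serotonin reuptake inhibitor. It blocks the serotonin transporter, which returns serotonin from the extracellular space into neurons. Serotonin also acts as a signal in the embryo before synapses have formed. At 48 hpf a zebrafish embryo has a beating heart, contracting trunk muscle, a lens, and a nervous system in which neurons are still being born. RNA measured at this stage was taken after a day without the drug. The lowest concentration was chosen by the study to match surface water, the next wastewater effluent, and the higher ones human serum at therapeutic and super-therapeutic levels.

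The values are means over the libraries of a group, as the authors deposited them, in normalized counts (reads assigned to a transcript, divided by a scaling factor for each library). They are not divided by transcript length, so an order of transcripts by level is an order of assigned reads. Values of single libraries and their depths were not analysed here, so a mean carries no error and no p-value was computed. Whether a mean was raised in 1 library or in all 5 was not tested. None of the 32963 transcript IDs was paired with a gene by the reference tables used here (0 of the 150). For this reason no gene name, function, cell type or sequence is given, and only 2 IDs are printed, those of the transcript with the highest L and of the most abundant one. The cell type of origin of these transcripts and the labelled tissue could not be checked against markers.

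The 150 transcripts had L values at 0.03 μg/L from 0.74 to 2.47, with a median of 0.87 and quartiles of 0.79 and 0.97. As folds of the means, these are 1.68 at the lowest, 1.82 at the median and 5.54 at the highest. Most lay close to the lower end. L was under 1 for 117 transcripts and at least 1 for 33, of which 5 had an L of at least 1.5. They were chosen as the highest by L, and the lowest of them had 0.74, so all 150 had an L above 0.6. The study used 0.6 as its threshold on the log2 fold change, but required an adjusted p-value limit as well. That p-value was not used here, so an L above 0.6 does not mean that the study called a transcript. Over all 22957 transcripts with means of at least 50, 6.21% had an L above 0.6 at 0.03 μg/L and 2.53% an L below -0.6. At 0.9, 50 and 250 μg/L the shares above 0.6 were 0.409%, 0.88% and 1.07%, and those below -0.6 were 0.423%, 0.68% and 0.488%.

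At the 3 higher doses the limit of 0.2 allows a mean up to 1.15-fold above control. Within it, the median L of the 150 transcripts was 0.01 for 0.9 μg/L (from -0.19 to 0.19) and -6.93e-05 for 50 μg/L (from -0.18 to 0.20). For 250 μg/L it was 0.10 (from -0.18 to 0.20). The level at 250 μg/L lay above control for 114 of the 150 (76%). The number was 85 for 0.9 μg/L and 75 for 50 μg/L. Among the 13463 other transcripts within the limits, 50.2%, 57.3% and 51.6% lay above control with 0.9, 50 and 250 μg/L. Lists of 150 chosen by the same limits also departed from these shares at 250 μg/L. There 70.7% of those highest at 0.9 μg/L and 87.3% of those highest at 50 μg/L lay above control. For the 150 lowest at 0.03 μg/L it was 16.7%. A high share above control at 250 μg/L was thus not particular to the transcripts described here. All 4 comparisons share their control libraries, and the part of this sharing in these numbers was not tested. The label of these transcripts, higher only at 0.03 μg/L, therefore holds within 0.2 on the log2 scale and leaves small positive differences at 250 μg/L.

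**Figure D1:**
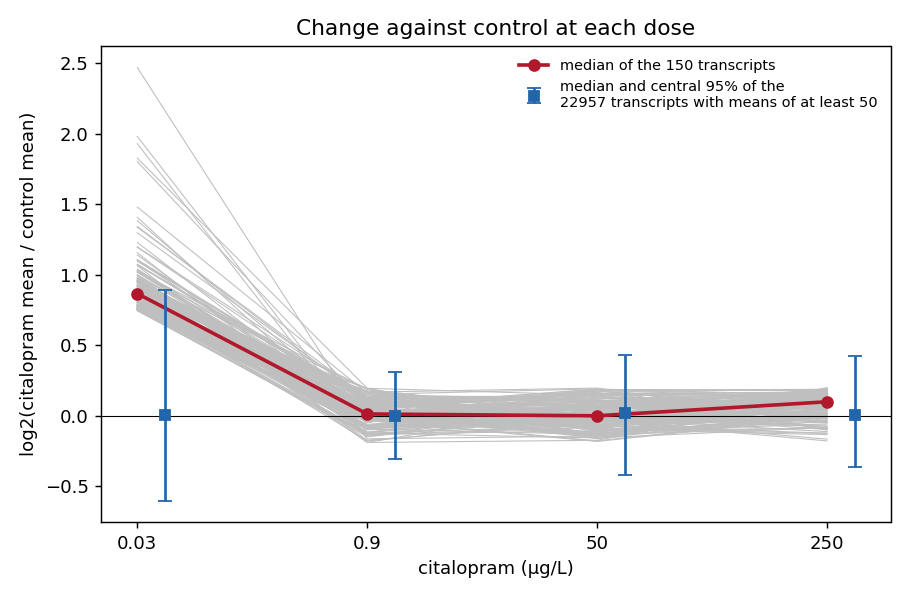
Each grey line is 1 of the 150 transcripts, with L (the log2 ratio of the citalopram mean to the control mean) on the vertical axis and the dose in μg/L on the horizontal axis. Red points are the medians of the 150, 0.87 at the lowest dose and at most 0.10 at the others, and blue squares with bars are the median and the central 95% of all 22957 transcripts with means of at least 50.

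The transcript with the highest L, ENSDART00000139218.3, was at 102.8 normalized counts in control embryos and 569.5 at 0.03 μg/L in the same table. In the other tables its citalopram means were 96.0, 109.5 and 107.9 in order of dose, beside control means of 100.6, 102.7 and 100.5. Its L was 2.47 at 0.03 μg/L and -0.07, 0.09 and 0.10 at the higher doses. The mean at 0.03 μg/L was 5.54-fold that of control, and the other 3 treated means lay close to it.

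The next 4 transcripts by L had control means from 61.9 to 196.8 normalized counts. The second went from a mean of 143.8 normalized counts in control to 568.0 at 0.03 μg/L, an L of 1.98. Its citalopram means were 129.6, 145.2 and 139.3 at 0.9, 50 and 250 μg/L. The third had means of 61.9 in control and 235.7 at 0.03 μg/L (L 1.93), and 53.9, 55.8 and 63.8 at the higher doses. The third is thus near the lower limit of 50 in every group but one. For the fourth, the means were 196.8 in control and 698.6 at 0.03 μg/L (L 1.83), with 219.8, 216.9 and 213.2 at the higher doses. The fifth had means of 78.3 and 273.4 (L 1.80), with 80.3, 89.0 and 86.7 at the higher doses. The fourth and the fifth lay above control at every dose, by an L of 0.07 to 0.19 at the higher ones, close to the limit of 0.2. After these 5 transcripts there was a gap, and the sixth had an L of 1.48.

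The most abundant transcript, ENSDART00000122203.3, was at 172888 normalized counts in control embryos and 350402 at 0.03 μg/L, an L of 1.02 and a fold of 2.03. At 0.9 μg/L its mean was 168598 beside a control mean of 168744 in that table. At 50 μg/L it was 179586 beside 172114, and at 250 μg/L 185364 beside 168524. Its L at these doses was -0.00125, 0.06 and 0.14. This transcript ranked 30 of 150 by L and carried 48.5% of the summed level of the 150 at 0.03 μg/L.

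The following 4 transcripts by level at 0.03 μg/L also combined a high level with a moderate L. The second most abundant had a mean of 33902 in control and 89985 at 0.03 μg/L (L 1.41), and L values of -0.09, -0.02 and -0.11 at the higher doses. It was thus slightly below control at each higher dose. The third had 41251 and 71061 (L 0.78), with L values of 0.01, 0.07 and 0.12. Means of 12100 and 22982 were found for the fourth (L 0.93), with 0.04, -0.14 and 0.02 at the higher doses. The fifth had 11981 and 20298 (L 0.76), with 0.17, -0.05 and 0.06. Of these 5, 3 had an L under 1.

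Summed over the 150 transcripts, the deposited means came to 361620 normalized counts in control and 722475 at 0.03 μg/L, or 1.28% and 2.47% of all normalized counts in that table. With 0.9 or 50 μg/L the 150 held 1.28% of the counts of treated embryos, and with 250 μg/L 1.37%. Without the most abundant transcript the shares were 0.666% in control and 1.27% at 0.03 μg/L, and 0.673%, 0.660% and 0.699% at the higher doses. The summed level at 0.03 μg/L was therefore about as far above control with that transcript as without it. Each of the 150 was chosen by a higher mean at 0.03 μg/L, so a raised sum follows from the rule in both cases. The same rule keeps the sums near control at the higher doses.

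Between tables, control means were the same up to a scaling factor. Relative to the table for 0.03 μg/L, the median log2 ratio was -0.04, -0.01 and -0.04 in the tables of the higher doses in order. For the 150 transcripts this ratio stayed between -0.04 and -0.000454 across the 3 tables. The treated groups were put on one scale by it and set beside each other. Control means differ by little but this factor, so each ratio of treated means is nearly L at 0.03 μg/L minus L at the other dose. The rule thus fixed that these ratios are positive for the 150, and their values are a description. The mean at 0.03 μg/L exceeded that at 0.9 μg/L by a log2 ratio of 0.59 to 2.53 (median 0.86), that at 50 μg/L by 0.57 to 2.37 (median 0.88) and that at 250 μg/L by 0.56 to 2.36 (median 0.80). Over all 22957 transcripts these medians were 0.01, -0.01 and 0.00328.

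On this scale, the mean at 0.03 μg/L was the highest of the 5 groups for all 150 transcripts, with a log2 gap of at least 0.56 (median 0.76) to the next group. The rule fixed this order. It also kept the gap wide and the other 4 groups close together, so the gap and range given here are descriptions. The other 4 groups, control included, spanned a log2 range of 0.04 to 0.34 with a median of 0.18. The median range was 0.14 among all 13613 transcripts within the limits. The gap was 2.05 to 18.2 times this range for each transcript, with a median of 4.28, which sets the 0.03 μg/L mean against differences between group means and not between libraries. The next highest group was 250 μg/L for 77 of the 150 transcripts, 0.9 μg/L for 31, 50 μg/L for 30 and control for 12. The lowest group was 50 μg/L for 53, control for 40, 0.9 μg/L for 39 and 250 μg/L for 18. These orders were not counted for the other transcripts within the limits, so whether they are particular to the 150 is not known.

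Levels in control embryos ranged from 54.7 to 172888 normalized counts, with a median of 260.5 and quartiles of 113.8 and 797.6. At 0.03 μg/L the same transcripts had a median of 551.1 and quartiles of 223.7 and 1415. The control median was 298.8 over all transcripts with means of at least 50 and 417.4 over those within the limits at the higher doses. Transcripts were divided into 4 bands of equal number by their control mean over the 22957. In the lowest band, up to a control mean of 138.5, 50 of the 2181 transcripts within the limits (2.29%) belonged to the 150. The next bands gave 30 of 3109 (0.965%), 29 of 3918 (0.740%) and 41 of 4405 (0.931%). The SD of L over the transcripts within the limits went from 0.31 in the lowest band to 0.25 in the highest. Every band thus contributed, and the lowest contributed the largest share. The highest L was 2.47 and 1.98 in the lower bands and 1.06 and 1.48 in the upper ones. Across the 150 transcripts, Spearman's rho between control level and L was -0.12, given as a description because all points share their libraries and the control mean is part of both values.

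**Figure D2:**
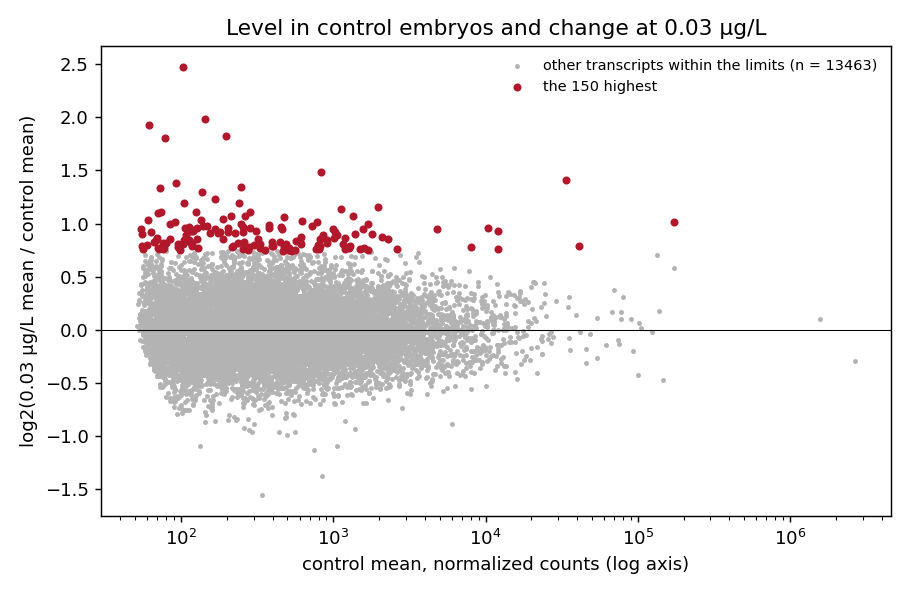
Each point is a transcript within the limits at the 3 higher doses, with its mean in control embryos in normalized counts on a log axis and L at 0.03 μg/L on the vertical axis. The 150 highest, in red, extend from control means of 54.7 to 172888, and the highest values of L lie at control means below 200.

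The edge of the list is not a step in the data. The last 3 transcripts inside it had L values of 0.75, 0.75 and 0.74 and means at 0.03 μg/L of 934.4, 882.6 and 779.7 normalized counts. The first 3 outside had 0.74 each and means of 390.4, 711.3 and 338.5. Within the limits at the higher doses, 317 transcripts had an L of at least 0.6 at 0.03 μg/L and 141 an L of -0.6 or less. At a size of 0.8 the numbers were 110 higher and 27 lower, at 1.0 they were 33 and 5, and at 1.5 they were 5 and 1. At a size of 0.4 they were 999 and 780. For a size of at least 0.2, which includes the larger ones, they were nearly equal, 2899 and 2928. From 0.2 to 0.4 alone, 1900 were higher and 2148 lower. The minimum of 50 in the treated group leaves out weakly expressed transcripts with a low L. The same minimum in control leaves out transcripts that rise from a control mean under 50. Transcripts with a control mean of at least 200 are not affected by either minimum down to an L of -2. This cut is on the control mean alone, which is part of L, and its part in the numbers was not tested. Among these transcripts 196 were higher and 92 lower at 0.6. The numbers were 60 and 23 at 0.8, 15 and 4 at 1.0, and 0 and 1 at 1.5. From a size of 0.6 up to 1.0, differences at 0.03 μg/L were therefore more often above control than below it. Over all 22957 transcripts 1425 had an L above 0.6 and 581 below -0.6, so this was not particular to those within the limits. Differences from 0.2 to 0.4 were not more often above control, and that size was not counted for control means of at least 200.

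Many transcripts with an L as high at 0.03 μg/L were not within the limits at the other doses. Of all 22957, 897 (3.91%) had an L at or above the edge, and the 150 make up 16.7% of these. The other 747 passed the limit at 1 or more higher doses. At 250 μg/L 573 of the 747 were higher than control by an L of at least 0.2 and 24 were lower by as much. The 573 make up 76.7% of the 747 and 63.9% of the 897. With 50 μg/L the numbers higher and lower were 351 and 77, with 0.9 μg/L 291 and 90. The share of all 22957 past 0.2 was not counted. Their upper quartile of L was 0.07, 0.13 and 0.11 at 0.9, 50 and 250 μg/L, and their lower quartile -0.07, -0.10 and -0.09. The 747 were set apart from the 150 by being past the limit, so shares within them are raised by this choice. The 747 were also picked by a high L against the same control libraries, and the part of this in these counts was not tested. For 178 of the 747, 250 μg/L was the only dose past the limit, compared with 57 for 0.9 μg/L and 48 for 50 μg/L. The 150 transcripts with the highest L at 0.03 μg/L regardless of the other doses had a median L of 1.70, and 8 of them belong to the list described here. Its own median of 0.87 lies just under 0.89, the upper end of the central 95% of all 22957 transcripts at 0.03 μg/L.

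The same rule was applied with each other dose in the place of 0.03 μg/L. The 150 transcripts then found had L values of 0.21 to 0.55 for 0.9 μg/L (median 0.26) and 0.34 to 1.30 for 50 μg/L (median 0.41). For 250 μg/L they were 0.21 to 0.62 (median 0.25). They came from 8185, 9346 and 8234 transcripts within the limits, fewer than the 13613 for 0.03 μg/L. The 150 with the lowest L at 0.03 μg/L had values of -0.59 to -1.55 with a median of -0.67. The lowest L among the 150 higher at 0.03 μg/L, 0.74, was above the highest in the lists for 0.9 and 250 μg/L, and below the highest for 50 μg/L. Over all transcripts, L also varied more at 0.03 μg/L, with an SD of 0.38 over the 22957 transcripts against 0.16, 0.21 and 0.20 at the higher doses in order. The part of this wider spread in the size of the list was not tested. The lists share control libraries, and no test of the difference between them could be made from group means.

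**Figure D3:**
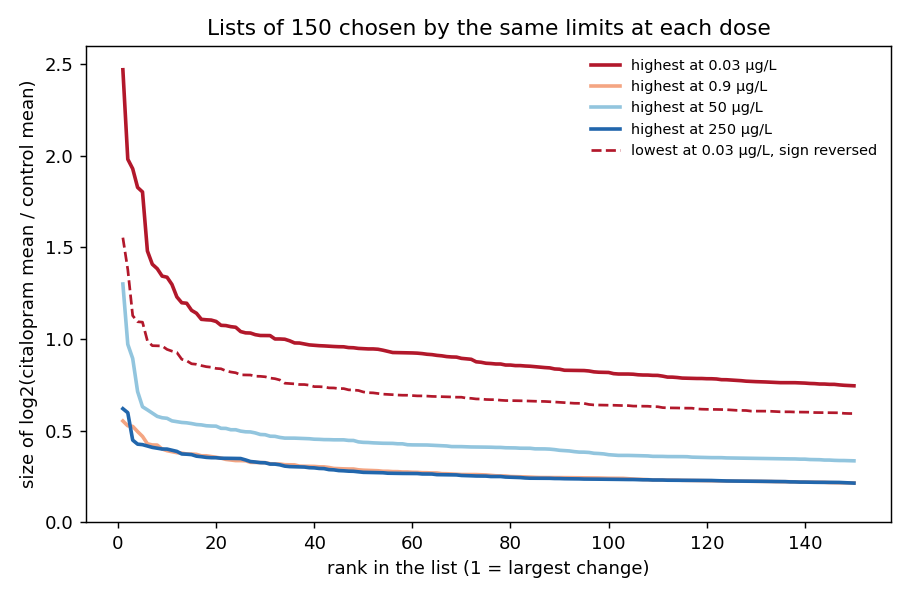
Lists of 150 transcripts chosen by the same limits, each ranked from the largest change, with the size of L on the vertical axis. Solid lines are transcripts higher at 1 dose only and the dashed line those lower at 0.03 μg/L with the sign reversed. The line for 0.03 μg/L runs from 2.47 to 0.74, and those for 0.9, 50 and 250 μg/L end at 0.21, 0.34 and 0.21.

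The transcript IDs carry 1 feature that the rule did not use. An Ensembl ID has a running number and a version, which begins at 1 and is raised when the model of the transcript is revised, so version 1 marks a model that has not been revised. Higher numbers were in general assigned later. Of the 150 transcripts, 66 (44%) had version 1, 48 (32%) version 2 and 36 (24%) version 3 or later. Over all 22957 transcripts with means of at least 50, 13.4% had version 1, 27.5% version 2 and 59.1% version 3 or later. Versions of 5 or later made up 6.67% of the 150 and 32.6% of the 22957. ID numbers above the upper quartile of the 22957 were found for 91 of the 150 (60.7%), among them all 66 with version 1. Over the 22957, 3068 of the 3079 IDs with version 1 also had such a number. A high number is thus nearly given with version 1, and the 2 traits overlap. The reverse does not hold, as 5739 of the 22957 had such a number and 3068 of these had version 1. In the list, 66 of the 91 had version 1.

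Among transcripts within the limits at the higher doses, the share with version 1 was lowest where L at 0.03 μg/L was near 0. It was 6.14% for an L from -0.2 to 0 and 8.78% from 0 to 0.2. From there it went to 14.3% for 0.2 to 0.4, 19.2% for 0.4 to 0.6 and 24.0% for 0.6 to the edge of the list, before the 44% of the list itself. In the other direction it was 7.91% for -0.4 to -0.2, 10.2% for -0.6 to -0.4 and 21.3% below -0.6. The share was thus higher at both ends and highest at the upper one. Transcripts near an L of 0 also had higher control levels, with a median of 449.8 normalized counts from -0.2 to 0 compared with 260.5 in the list.

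Within bands of control level, version 1 was found for 16 of the 50 listed transcripts in the lowest band (32%), 19 of 30 in the next (63.3%), 12 of 29 in the third (41.4%) and 19 of 41 in the highest (46.3%). Among the other transcripts within the limits these shares were 16.0%, 12%, 8.23% and 5.91%. The share was therefore higher in the list at each level, also among abundant transcripts. The 66 with version 1 and the 84 with later versions had a similar L at 0.03 μg/L, with medians of 0.87 and 0.86, and similar control medians of 279.1 and 236.0 normalized counts. Their median L at 250 μg/L was 0.10 in both. The highest L with version 1 was 1.83, and the 3 transcripts above it had later versions.

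The lists made by the same rule held fewer IDs of version 1: 32 of 150 (21.3%) for 0.9 μg/L, 18 (12%) for 50 μg/L, 32 (21.3%) for 250 μg/L and 30 (20%) for those lowest with 0.03 μg/L. These lists have smaller L values, so they are not matched to the 150 in size of change. With no limits at the other doses, 43.3% of the 150 highest and 28% of the 150 lowest at 0.03 μg/L had version 1. At the other doses such lists held 25.3% to 38.7%. A share of version 1 above that of all transcripts was thus not particular to the 150 described here. The part of the transcript models in the difference at 0.03 μg/L was not tested. Salmon divides reads between transcripts that share sequence, and the share of reads that could have been assigned to another transcript of the same gene was not analysed here.

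**Figure D4:**
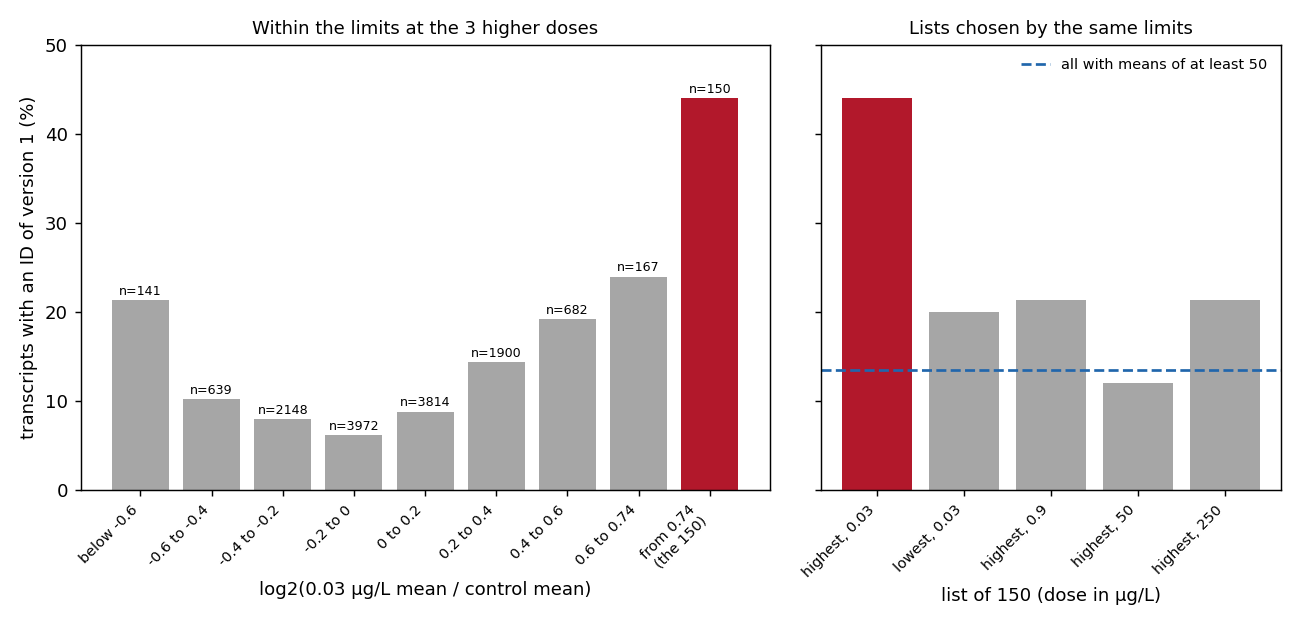
Percent of transcripts whose Ensembl ID has version 1. At the left, transcripts within the limits at the 3 higher doses are divided by L at 0.03 μg/L, with their number above each bar, from 6.14% just below 0 to 44% in the list. At the right are the lists of 150 chosen by the same limits, and the dashed line is the 13.4% of all transcripts with means of at least 50.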

How the data were processed

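Reads were trimmed by the authors (Trimmomatic) and assigned to the transcripts of Ensembl GRCz11, coding or not, with Salmon, as the study's methods and the submitters' processing notes state. The authors compared each dose with the same controls in DESeq2 within Trinity. How transcripts were selected for the tables is not stated in those sources. The deposited group means are counts that the authors normalized in DESeq2 and averaged over a group, and were treated as a non-negative signal. The deposited tables also hold a fold change, its standard error, a statistic and p-values for each transcript. These are the authors' own comparisons and were not used. Single libraries and their depth were not analysed here.

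L was computed without a pseudocount. Samples were grouped by their labels, whose treatment text names other drugs while titles and the treatment field name citalopram. No ID matched the tables of Ensembl genes and RefSeq GRCz12tu genes used here, so gene lists and cell type markers were not counted. With no gene names, the naming rule allowed 2 IDs. The members, lists and alternatives were chosen with earlier results of these data known, and the ID version and the control minimum of 200 were examined after the values were seen. The code of the selection was checked on simulated data, with planted rises larger than most of those in the list and control means of at least 200. The simulation held counting noise only, so it says nothing about differences between libraries or about the transcripts near the edge. Python 3.11.15, numpy 2.4.6, pandas 2.3.3 and matplotlib 3.10.9 were used.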

Additional observations from a re-analysis of the deposited data

How the results depend on the processing

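The selection depended most on the limit at the higher doses. With a limit of 0.1 in place of 0.2, 5367 transcripts in place of 13613 were within it, the median L at 0.03 μg/L was 0.55, and 21 of the 150 transcripts were chosen again, with 41 IDs of version 1 in the list. With a limit of 0.3 the median was 1.01 and 68 were shared. The median L was 0.92 with a minimum mean of 20 and 0.92 with no minimum, 0.83 with a minimum of 100, 0.88 with a pseudocount of 10, 0.88 with L centred on its median at each dose and 0.86 with one control mean per transcript. It was unaltered to 2 decimals with a pseudocount of 1 or when ordered by the excess over the other doses. Under these 8 settings 117 to 149 of the 150 were shared. Under all 10 alternatives the list held 41 to 66 IDs of version 1, a count recomputed after the data were seen. No paired analysis was possible because the columns used here are group means without replicate numbers, and for the same reason no library was left out. Single libraries and their depth were not analysed here.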

Other observations

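IDs of version 1 were also frequent among transcripts with large differences at any dose when no limit was set on the other doses. Of the 150 with the highest L, 65 (43.3%), 49 (32.7%), 38 (25.3%) and 55 (36.7%) had version 1 in order of dose. Of the 150 with the lowest L, these numbers were 42 (28%), 58 (38.7%), 52 (34.7%) and 53 (35.3%). The share over all 22957 transcripts with means of at least 50 was 13.4%. Of the 150 transcripts higher at 0.03 μg/L alone, 8 are in the list of highest L at 0.03 μg/L. Their absence from the other lists follows from the rule, which requires an L within 0.2 at the higher doses and a high L at 0.03 μg/L. The lists at different doses share control libraries, and no test was made.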
